A study of Rattus norvegicus with 18 samples.

Results

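The 6 genes described here are protein-coding genes of the mitochondrial genome that encode subunits of respiratory complexes III, IV and V: Co1 (ENSRNOG00000034234), Co2 (ENSRNOG00000030371) and Co3 (ENSRNOG00000030700) of cytochrome c oxidase, Cytb (ENSRNOG00000031766) of the cytochrome bc1 complex, and Atp6 (ENSRNOG00000031979) and Atp8 (ENSRNOG00000033299) of ATP synthase. They are defined by this function, though the set was picked with earlier results of these data known, and make up 6 of the 32882 genes in each of the count tables. RNA-seq was done on the gastrocnemius, a hindlimb muscle, of 18 males that fell into 6 groups of 3. The HCR (high capacity) and LCR (low capacity) animals were rats of generation 33 of lines bred from N:NIH stock for running capacity without training, tested at 11 weeks of age, and stayed untrained. High and low responders to training were rats of generation 15 of lines bred for the gain in capacity with training, also from N:NIH stock. They were first tested at 10 to 12 weeks of age. HRT and LRT are the untrained controls of these lines, and HRTT and LRTT are the rats of the same lines trained for 8 weeks. Trained and untrained responder rats were all tested at the end of the training period. Their muscles were taken 48 hours after the last test. Each library came from 1 rat, so the SD and the p-values below are over rats.

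Complex III (cytochrome bc1) passes electrons from ubiquinol to cytochrome c, complex IV (cytochrome c oxidase) passes them on to oxygen, and both pump protons whose return flow drives ATP synthesis by complex V. Most subunits of these complexes are encoded in the nucleus, and the few encoded in the mitochondrial DNA include parts of the catalytic and proton-conducting core. The mitochondrial genes are transcribed as long polycistronic RNAs that are cut into single messages, and the coding sequences of Atp8 and Atp6 overlap on 1 shared message. A read was counted for every annotated gene it overlapped, so reads in such an overlap entered both genes, and reads that aligned to several places were not counted. No mitochondrial sequence or gene length was used here, so levels are compared between rats for each gene. Ranks, shares and ratios of counts between genes are not corrected for length.

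The 6 libraries of HCR and LCR held 31869042 to 42172690 counts each and the 12 libraries of the responder lines 25084058 to 41446415. A check for libraries deposited more than once gave a chi-square per gene of 16.6 to 280.6 over the 18 pairs of replicates, and all libraries were counted as separate samples. The libraries also carry a number, 1, 2 or 3, in their column headings, whose meaning is not stated. All HRT and all LRTT libraries carry number 2, all HRTT libraries number 3, and the LRT libraries the numbers 3, 1 and 1. No library of HRT shares a number with LRT or HRTT, and none of LRTT with LRT or HRTT. In these 4 comparisons the number and the group therefore cannot be told apart, and LRT replicate 1 alone shares number 3 with HRTT. The number also cannot be told apart from the difference of the training effects: HRT and LRTT carry number 2, HRTT and LRT only 3 and 1. The average differences between lines and between trained and untrained rats can be fitted with the number as a term, but then rest on LRT replicate 1, the rat with the lowest summed share of the 6 genes. The identifiers of the count tables could not be paired with names of other genes, so marker genes of muscle and of other cell types were not examined here. Per the methods, RNA came from a portion of powder ground from frozen gastrocnemius, and in such tissue fewer fibres rich in mitochondria and less mitochondrial RNA per fibre cannot be told apart.

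The 6 mitochondrial genes together took a large and variable share of every library. The summed share was 12.4%, 16.1% and 17.3% of the total count in the 3 HCR rats and 12.9%, 12.5% and 16.1% in the 3 LCR rats. It was 15.5%, 13.3% and 10.9% in HRT and 7.69%, 13.2% and 10.6% in LRT. After training it was 13.9%, 10.01% and 10.1% in HRTT and 15.03%, 12.5% and 8.52% in LRTT. The lowest and the highest rat, in LRT and in HCR, differed 2.25-fold, and the ranges of the groups overlapped in every comparison. Ordered by their means, HCR was highest with 15.3% ± 2.59 (SD, n = 3), then LCR with 13.9% ± 1.96, HRT with 13.2% ± 2.34, LRTT with 12.03% ± 3.28, HRTT with 11.3% ± 2.22 and LRT with 10.5% ± 2.77. No group mean differed from its neighbour in this order by more than their pooled SD, and levels of the first 2 groups come from another table than the other 4.

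**Figure D1:**
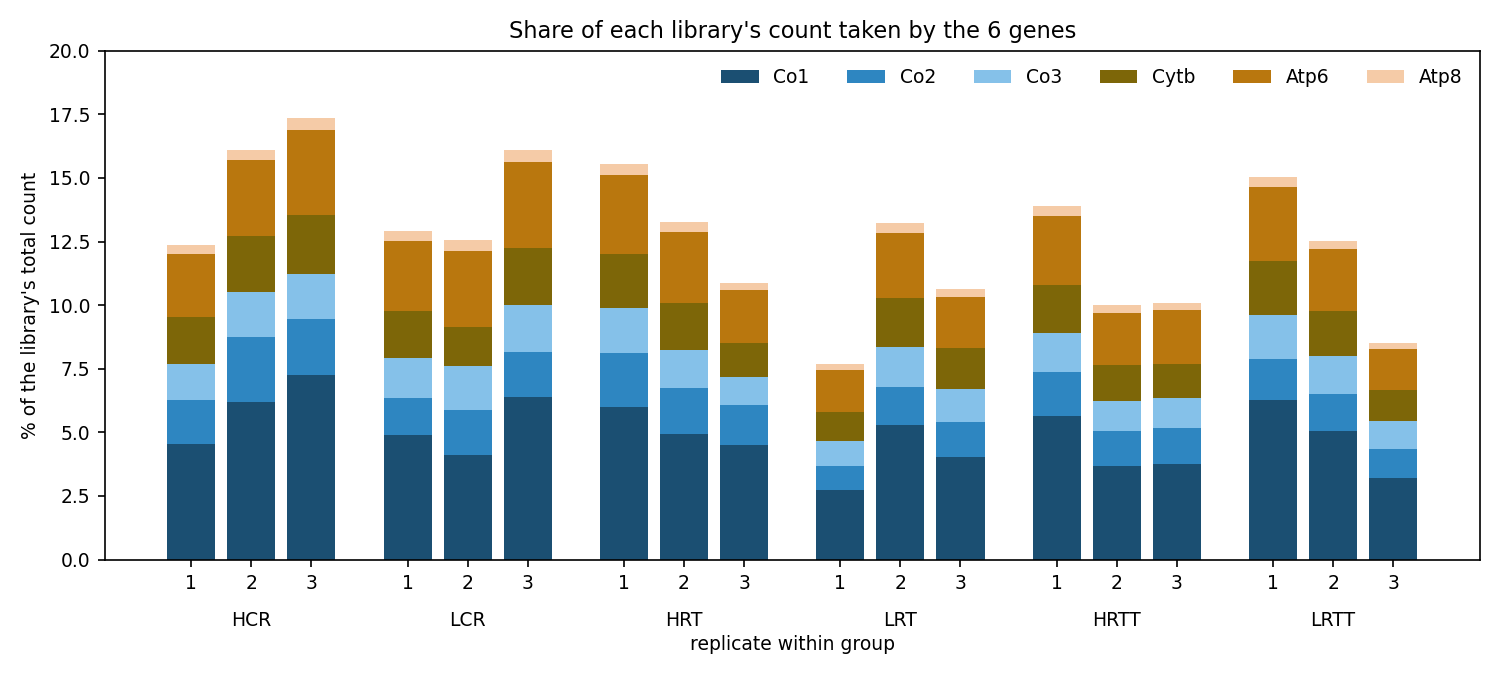
Stacked bars give, for each of the 18 rats, the percentage of the library's total count assigned to Co1, Co2, Co3, Cytb, Atp6 and Atp8, with replicates 1 to 3 of each group side by side. The summed height runs from 7.69% in an LRT rat to 17.3% in an HCR rat, and replicates of 1 group differ as widely as groups do.

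The summed share did not separate any pair of groups. By the exact two-sided permutation test over rats, HCR and LCR differed by 1.41 percentage points (p = 0.70), HRT and LRT by 2.71 (p = 0.20) and HRTT and LRTT by -0.69 (p = 0.90), high minus low line in each case. With 3 rats against 3 the smallest p this test allows is 0.10. Trained minus untrained rats differed by 1.51 percentage points in the low responders (p = 0.60) and by -1.89 in the high responders (p = 0.30, both by the exact test). With 1 library left out these differences ranged from 0.00922 to 3.26 in the low and from -3.17 to -0.731 in the high responders. HRTT and HRT are separate rats, paired here by replicate number because same-numbered libraries deviated together over all genes, and not by design. Within these 3 pairs the trained rat had the lower share in 3, at differences from -3.26 to -0.766 percentage points. The exact paired test gave p = 0.25 for this, the smallest it can give with 3 pairs. Over both states of training the high responder line differed from the low by 1.01 (p = 0.51), and over both lines the trained rats differed from the untrained by -0.19 (p = 0.89), both by exact permutation, where the smallest p allowed is 0.005. The training effect of the high responders minus that of the low responders was -3.40 percentage points (exact permutation p = 0.255). This difference of effects cannot be told apart from the heading number. Adjusted over these 8 tests by Benjamini-Hochberg, the p-values lay between 0.80 and 0.90.

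Co1, the catalytic core subunit of cytochrome c oxidase, ranked between the 1st and the 4th gene of all by count in each rat. Its level in CPM (counts scaled to the library's total) was 45255, 61909 and 72612 in HCR and 48972, 41171 and 63800 in LCR. In the untrained responder lines it was 60088, 49347 and 44991 in HRT and 27452, 52763 and 40318 in LRT. In the trained rats it was 56504, 36675 and 37632 in HRTT and 62871, 50381 and 32172 in LRTT. The groups overlapped in every comparison, and Co1 spanned 2.65-fold over the 18 rats.

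Co2, the subunit that takes up electrons from cytochrome c, ranked between 6th and 20th. Its CPM was 17372, 25398 and 21752 in HCR and 14608, 17513 and 17804 in LCR, where the lowest HCR rat lay below the highest LCR rats. In HRT the 3 rats had 20941, 18095 and 15875 CPM, and in LRT 9163, 15232 and 13653. All 3 HRT rats were above all 3 LRT rats, the narrowest gap being that between 15875 and 15232. Trained rats had 17200, 13800 and 13878 CPM in HRTT and 15959, 14488 and 11334 in LRTT, and these groups overlapped.

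Co3, the third mitochondrial subunit of the oxidase core, varied least, with 9958 to 18502 CPM over the 18 rats, a 1.86-fold span. HCR rats had 14361, 17848 and 17710 CPM and LCR rats 15782, 17341 and 18502. The HRT rats had 17857, 15095 and 10808 CPM and the LRT rats 9958, 15584 and 12945. The HRTT rats had 15266, 11744 and 11949 CPM and the LRTT rats 17299, 15138 and 10868. Co3 overlapped between the groups of every comparison, including HRT and LRT, where Co2 did not.

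Cytb, the only subunit of complex III encoded in the mitochondrial DNA, lay between 11446 and 23180 CPM. Its mean was 21190 ± 2512 CPM in HCR and 18800 ± 3488 in LCR (SD, n = 3 each). In the responder lines the means were 17660 ± 3918 in HRT, 15540 ± 3863 in LRT, 15410 ± 3060 in HRTT and 17060 ± 4621 in LRTT. The groups overlapped in every comparison, and HRTT, not LRT, had the lowest mean.

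Of the ATP synthase subunits, Atp6, which forms part of the proton channel, lay between 16322 and 33913 CPM, and Atp8, a small subunit of the same membrane sector, between 2380 and 4571 CPM. Atp6 had means of 29440 ± 4489 CPM in HCR and 30330 ± 3333 in LCR, 26560 ± 5228 in HRT and 20820 ± 4769 in LRT, and 23000 ± 3521 in HRTT and 23170 ± 6343 in LRTT (SD, n = 3 each). Atp8 had means of 3906 ± 512.3 CPM in HCR and 4203 ± 360.8 in LCR, 3655 ± 842.5 in HRT and 3117 ± 566.0 in LRT, and 3395 ± 558.7 in HRTT and 3199 ± 833.6 in LRTT. Both genes, and Co3, had their highest mean in LCR, whereas Co1, Co2 and Cytb had it in HCR. For none of the 6 genes did 2 neighbours in the order of the 6 group means differ by more than their pooled SD.

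**Figure D2:**
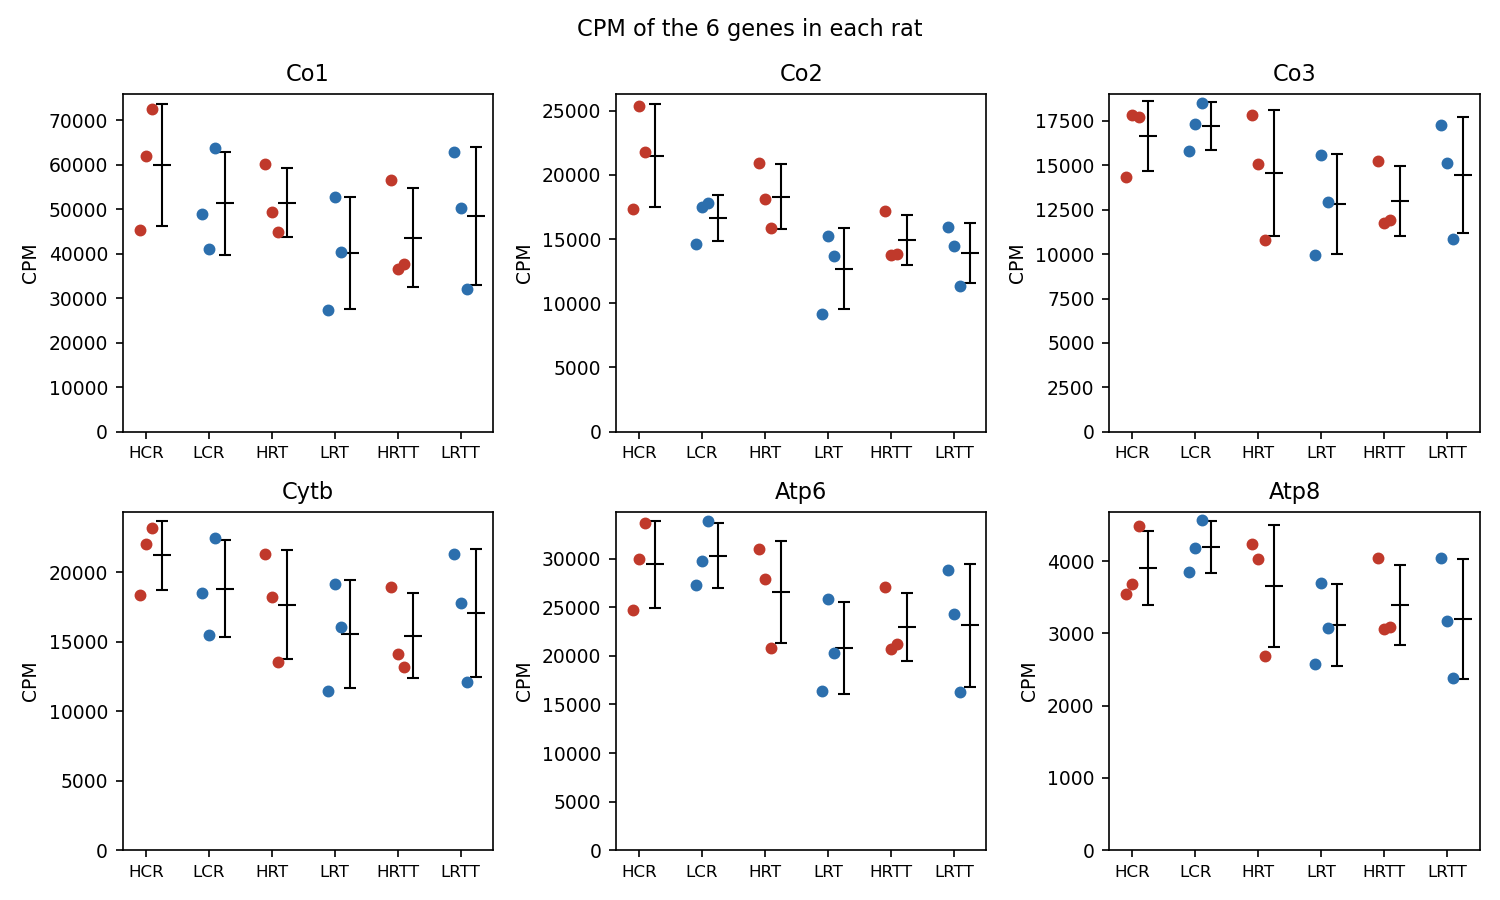
Each panel gives 1 gene in CPM, with a point for each of the 3 rats of a group (red for the high lines HCR, HRT and HRTT, blue for the low lines LCR, LRT and LRTT) and a bar for the group's mean ± SD. In Co2 the HRT rats (15875 to 20941 CPM) lie above the LRT rats (9163 to 15232 CPM), and in the other panels the points of compared groups overlap.

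To ask whether intrinsic running capacity went with a different level of these messages, HCR and LCR were compared with edgeR's quasi-likelihood test over all 13138 genes with enough counts. None of the 6 mitochondrial genes passed an adjusted p of 0.05 with a fold above 1.5, against 4 of 13138 genes, or 0.0304%, and none had an unadjusted p under 0.05, against 860 genes. The log2 fold changes ran from -0.11 for Atp8 to 0.37 for Co2, with a median of 0.08 beside -0.00242 over all genes, and 3 of 6 were above 0. The largest, that of Co2, had a standard error (SE) of 0.27 and a 95% confidence interval from -0.25 to 0.99 (adjusted p = 0.865), so that changes from 0.843-fold to 1.98-fold are within it. Co1 had a log2 fold change of 0.25 (SE 0.28) and Cytb of 0.19 (SE 0.23), whereas Co3 had -0.05 (SE 0.24) and Atp6 -0.04 (SE 0.25). No gene of the 6 had HCR and LCR rats apart in CPM, against 10.8% of the genes tested.

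Between the untrained responder lines, Co2 had the largest fitted difference of the 6. HRT against LRT, fitted with all 12 libraries of the responder lines, gave Co2 a log2 fold change of 0.54 (SE 0.22, 95% confidence interval 0.07 to 1.01), or 1.45-fold, with an unadjusted p of 0.0281 and an adjusted p of 0.50 by edgeR, which does not pass. The other 5 genes lay between 0.19 and 0.36, and all 6 were above 0, with a median of 0.29 beside -0.01 over all 13478 genes tested. None of the 6 passed, against 1 gene, or 0.00742%, while 1 of the 6 and 1288 of all genes had an unadjusted p under 0.05. The groups were apart in CPM for 1 of the 6, Co2, against 15% of all genes tested. The LRT rat with the lowest summed share, 7.69%, bears on these values. Without this library the log2 fold change of Co2 was 0.34 (adjusted p = 0.93 by edgeR), that of Co1 0.14, of Co3 0.0243, of Atp6 0.196, of Atp8 0.0997 and of Cytb -0.000442.

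Between the trained responder lines the fitted differences ran in both directions. In HRTT against LRTT the log2 fold changes ran from -0.18 for Co1 to 0.09 for Co2, 2 of 6 were above 0, and none of the 6 passed, against 1 gene, or 0.00742%. None had an unadjusted p under 0.05, against 776 genes, and none was apart in CPM, against 11% of all genes tested. Averaged over both states of training, the fitted difference of high minus low responder line was largest in Co2, at 0.31 on the log2 scale (SE 0.15, 95% confidence interval -0.02 to 0.64, unadjusted p = 0.0621, adjusted p = 0.498 by edgeR). Atp6 followed with 0.16 (SE 0.18) and Atp8 with 0.15 (SE 0.17), and Co1, Cytb and Co3 lay at 0.09, 0.01 and 0.01. With the heading number as a term the difference was 0.563 for Co2 (adjusted p = 0.273 by edgeR), 0.385 for Co1, 0.354 for Atp6, 0.304 for Atp8, 0.247 for Cytb and 0.208 for Co3, and none of the 6 passed. None of the 6 passed in this comparison, against 9 genes, or 0.0668%, and none had an unadjusted p under 0.05, against 1417 genes.

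The fitted effects of training lay on opposite sides of 0 in the 2 lines, and none passed the test. In the low responders, LRTT against LRT, all 6 genes were above 0, from 0.06 for Atp8 to 0.29 for Co1 on the log2 scale. In the high responders, HRTT against HRT, all 6 were below 0, from -0.11 for Atp8 to -0.30 for Co2. Some of these signs turned with 1 library left out, whereas Co1 and Co3 in the low and Co1, Co2, Cytb and Atp6 in the high responders kept theirs with each library left out. Without LRT replicate 1, LRTT against LRT gave -0.0433 for Co2, -0.0328 for Cytb and -0.0736 for Atp8, and without LRTT replicate 1 it also gave values below 0 for Cytb, Atp6 and Atp8. Without HRT replicate 1, HRTT against HRT gave 0.000562 for Co3 and 0.0138 for Atp8. None of the 6 passed in either line, where 0% of all genes passed, and none was apart in CPM, against 9.3% of genes in the low and 8.06% in the high responders. No member had an unadjusted p under 0.05 in either comparison, against 565 and 335 of all genes. The difference of the training effects, high minus low responders, ran from -0.17 for Atp8 (SE 0.33) to -0.54 for Co1 (SE 0.42), and none of the 6 passed this test of the difference (lowest adjusted p = 0.947 by edgeR, 0% of all genes called, 502 genes at an unadjusted p under 0.05). These 6 values come from the same 12 rats and move together, as described below, so that they are not 6 separate observations. The HRT and LRT rats also enter the comparison of the untrained lines, and the difference of the training effects cannot be told apart from the heading number.

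Over both lines, trained against untrained rats gave log2 fold changes between -0.07 for Co2 and 0.02 for Co1. With the heading number as a term they lay between 0.13 for Atp8 and 0.313 for Co1, all above 0, and none of the 6 passed. None of the 6 passed, where 0% of all genes passed and 437 had an unadjusted p under 0.05. In the fit without the heading number, the 95% confidence intervals of the 6 genes reached from -0.44 to 0.48 at their widest. In that fit, an average change beyond 1.39-fold upward in Co1 lies outside its interval. Intervals with the heading number as a term are not given here. DESeq2's Wald test called none of the 6 genes in any of the 8 comparisons either.

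**Figure D3:**
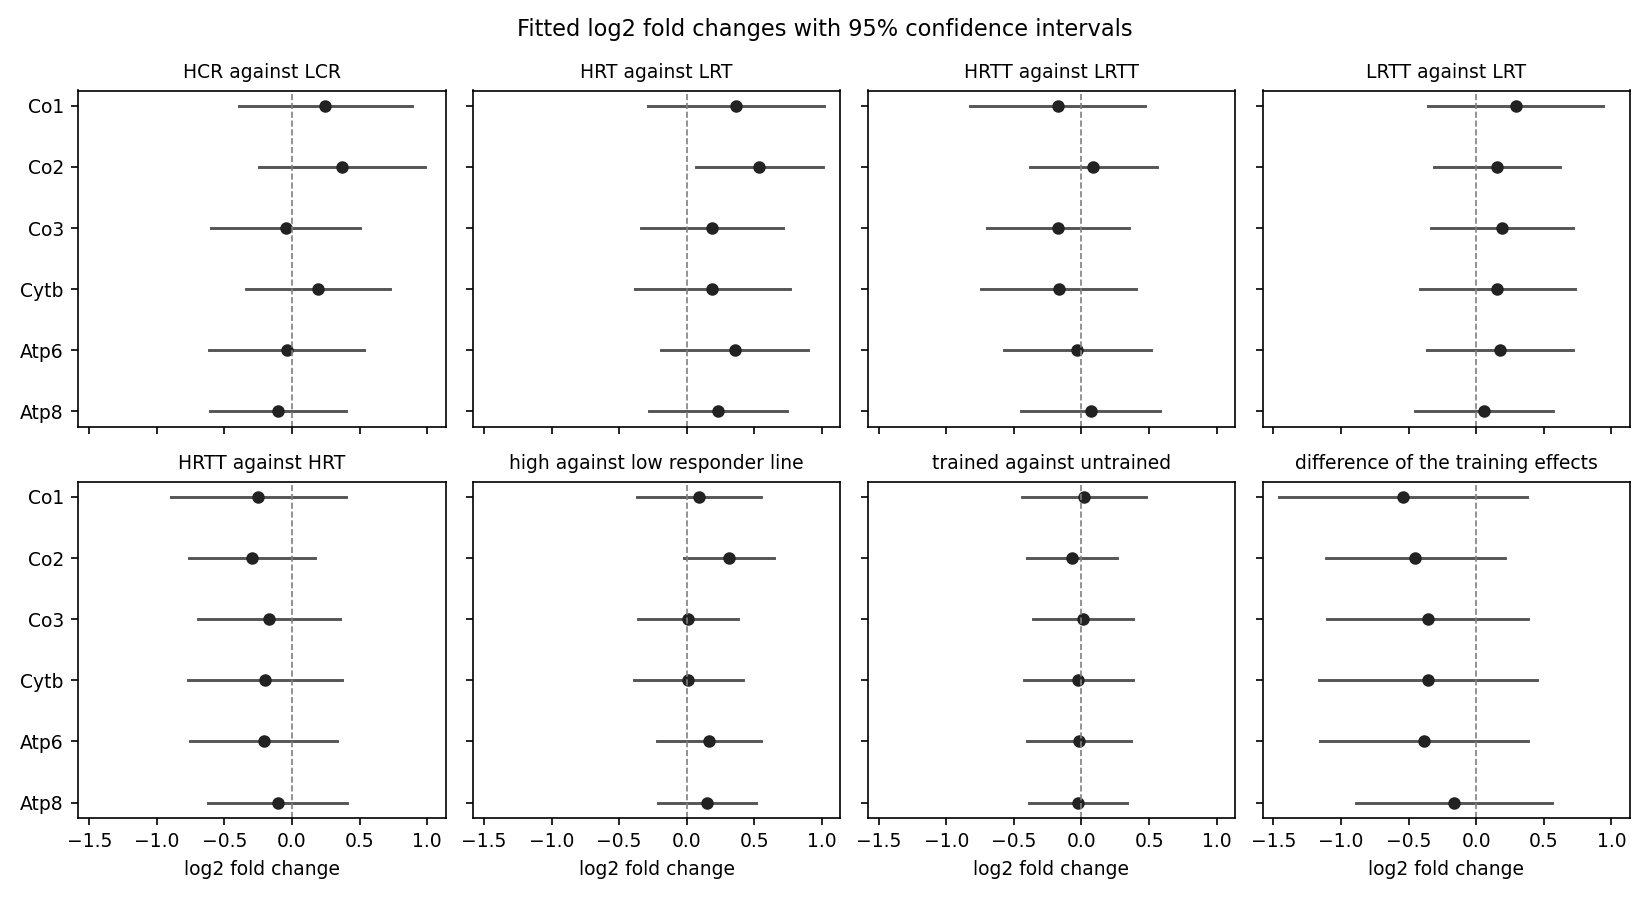
Each of the 8 panels is 1 comparison, and each point is a gene's fitted log2 fold change, first group over second, with its 95% confidence interval as a line and 0 dashed. Of the 48 intervals, that of Co2 in HRT against LRT (0.07 to 1.01) does not hold 0.

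The spread between rats sets what these comparisons could detect. In the responder lines the SD within groups of log2 CPM was 0.27 for Co2 to 0.40 for Co1, beside a median of 0.25 over all genes tested. In HCR and LCR it was 0.15 for Co3 to 0.33 for Co1, beside a median of 0.30. Counting error was small next to this, at most 0.355% of a value, in Atp8. Over the 12 rats of the responder lines the 6 genes varied together, with Pearson's r of log2 CPM from 0.787 for Co2 with Co3 to 0.985 for Co3 with Cytb and a median of 0.924 over the 15 pairs of genes. Over the 6 HCR and LCR rats r ran from 0.010 for Co2 with Atp8 to 0.967 for Co1 with Cytb, with a median of 0.590. The values of a pair share the library, its total and, for Atp6 and Atp8, some reads, and these correlations are a description.

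Among all 13014 genes tested in both tables, the gene whose level followed the mean of the 6 most closely over the 12 libraries was ENSRNOG00000031033 (r = 0.971), at a mean of 14400 CPM. Its r over the 6 HCR and LCR libraries was 0.409. The next was ENSRNOG00000058658, at a mean of 135.3 CPM, with r = 0.958 over the 12 and 0.549 over the 6 libraries. The median r over all genes was -0.04, and the files do not pair these identifiers with names.

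Within a library, the share of each of the 6 genes in their summed count varied as follows. Co1 made up 32.8% to 41.9% of the counts of the 6, Atp6 18.6% to 23.7%, Cytb 12.3% to 15.1%, Co2 10.6% to 15.8%, Co3 9.95% to 13.8% and Atp8 2.29% to 3.35%. Of the 6 shares, 1 did not overlap between HCR and LCR, 3 between HRT and LRT, 3 between HRTT and LRTT, 2 between LRTT and LRT and 0 between HRTT and HRT. Over all genes tested, the count relative to the summed count of the 6 did not overlap in 7.03%, 14%, 3%, 1.81% and 11% of genes in these comparisons, in the same order, though unlike other genes the 6 are part of that sum. Atp6 was lower in HCR (18.6% to 19.99%) than in LCR (21.1% to 23.7%). HRT rats had more Co2 and less Co3 and Cytb than LRT rats, with 13.5% to 14.6% against 11.5% to 12.8% for Co2. HRTT rats had more Atp6 and Atp8 and less Cytb than LRTT rats, with 2.91% to 3.06% against 2.53% to 2.79% for Atp8. The gap was narrow for Atp6 (lowest HRTT 19.46%, highest LRTT 19.44%) and for Cytb (highest HRTT 14.12%, lowest LRTT 14.16%). LRTT rats had less Cytb and Atp8 than LRT rats, for Atp8 by a narrow gap (highest LRTT 2.794%, lowest LRT 2.8%). These parts of a whole depend on each other and were not tested as separate values.

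The ratio of Co2 to Co3, both of complex IV, was the 1 ratio of the 15 that separated all high line rats from all low line rats. It was 1.21, 1.42 and 1.23 in HCR and 0.926, 1.01 and 0.962 in LCR. It was 1.17, 1.20 and 1.47 in HRT and 0.920, 0.977 and 1.055 in LRT. In the trained rats it was 1.13, 1.18 and 1.16 in HRTT and 0.923, 0.957 and 1.04 in LRTT. The 9 rats of the high lines thus had 1.13 to 1.47 counts of Co2 for each count of Co3. The 9 rats of the low lines had 0.920 to 1.055, without overlap.

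This ratio was singled out after its values were seen. On the log2 scale the high line exceeded the low by 0.41 in HCR against LCR, 0.37 in HRT against LRT and 0.25 in HRTT against LRTT, each with an exact p of 0.10, the smallest possible. Permuting rats within the 3 pairs of groups gave a mean log2 difference of 0.34, or 1.27-fold, with an exact p of 0.00025, the smallest this test can give and the value that any complete separation within the pairs gives. Adjusted by Benjamini-Hochberg over all 4950 ratios between the 100 genes with most counts, which include the 6, this p was 0.33 and does not pass. In the responder lines alone the difference was 0.31 (exact permutation p = 0.005, adjusted p = 0.263), and the log2 ratio of trained minus untrained rats was -0.08 (exact permutation p = 0.26). The exact permutation p of 0.005, the smallest possible there, was reached by 94 of the 4950 ratios. These include 3 of the 15 mitochondrial ratios: Co2 to Co3, Co3 to Atp6 and Cytb to Atp6.

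Of those 4950 ratios, 6.59% did not overlap between HCR and LCR, 12.8% between HRT and LRT and 7.45% between HRTT and LRTT, beside 6, 6 and 5 of the 15 ratios of the mitochondrial genes. These 15 ratios are built from 6 counts, of which Atp6 and Atp8 share some reads, and are not separate observations. All 3 pairs were apart in 1 direction in 3 of the 4950 ratios, or 0.0606%, and all 9 high line rats were beyond all 9 low line rats in 1, or 0.0202%, which is Co2 to Co3. Another of the 3 ratios is that of Co2 to ENSRNOG00000004612, a gene that the files do not name. The heading numbers are spread unevenly over the high and low lines. Within heading numbers the mean log2 difference was 0.375 beside 0.344 within the pairs of groups (exact permutation p = 0.000222, the smallest possible). Since the ratio was chosen for separating all 18 rats, libraries with the same number separate as well and this p is at its smallest by that choice.

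**Figure D4:**
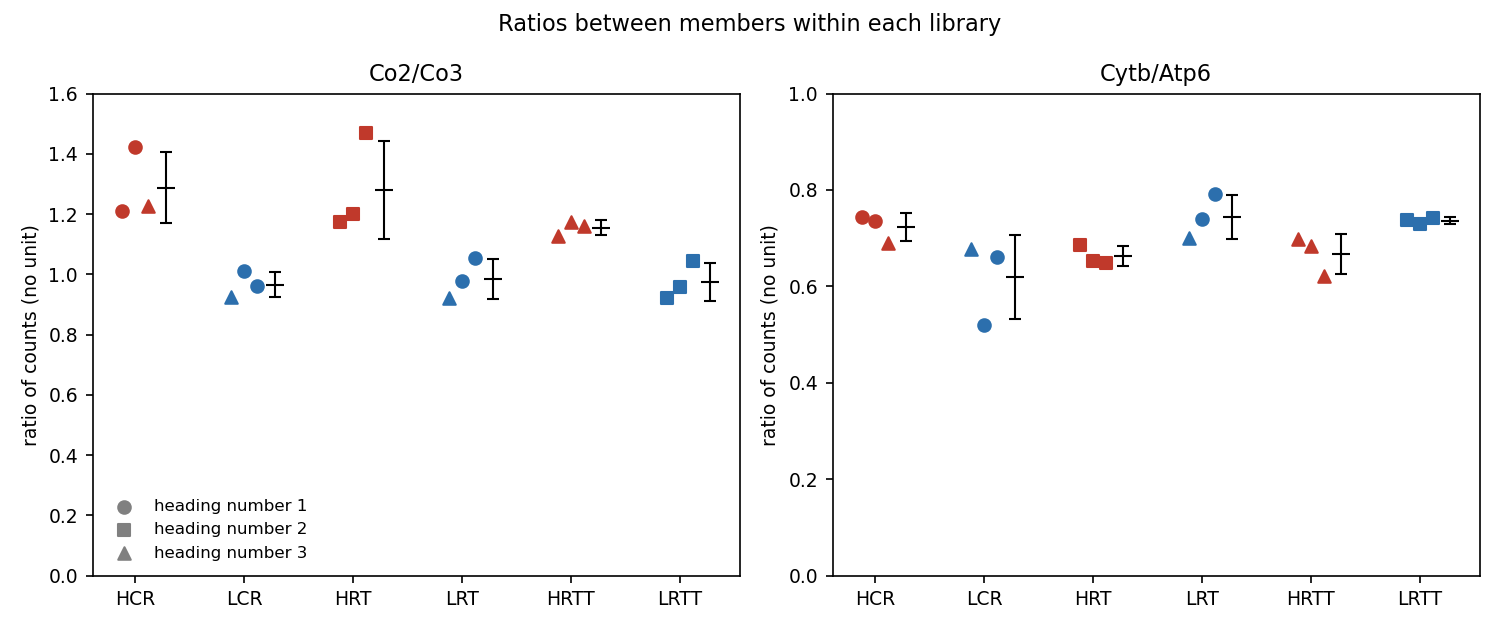
The panels give the ratio of counts of Co2 to Co3 (left) and of Cytb to Atp6 (right) in each rat by group, red for the high and blue for the low lines, with the shape of a point for the number in the column heading and a bar for the group's mean ± SD. For Co2 to Co3 the 9 red points lie between 1.13 and 1.47 and the 9 blue points between 0.920 and 1.055. For Cytb to Atp6, in contrast, the red points are above the blue in HCR against LCR and below them in the responder lines.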

How the data were processed

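The authors deposited raw read counts per gene for 18 libraries in 2 tables, and 5 tables with the levels, fold changes and p-values of their own Cuffdiff comparisons, which were not used. Per the file headers, the deposited counts came from featureCounts 1.6.4 with the Ensembl release 91 annotation of Rnor_6.0, strand setting 0 (strand ignored), a read counted for each gene it overlapped and reads with several alignments not counted. The submitters' processing notes and the methods name TopHat2 2.1.1, whereas alignment names in the headers have the form of STAR output, and the labels and methods name different TruSeq kits, an unstranded and a stranded one.

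From these counts, CPM and percentages of each library's total were computed. Differential expression was tested over all genes passing filterByExpr (count minimum 10) with edgeR 4.0.16 (TMM, robust quasi-likelihood fit) in R 4.3.3, separately for the HCR and LCR table (6 libraries) and the responder table (12 libraries). A call needed both a fold above 1.5 and an adjusted p (Benjamini-Hochberg) below 0.05, and an SE is the log2 fold change divided by the square root of its F statistic. Single values were compared by exact two-sided permutation tests over rats. On simulated data with 200 changed genes, the edgeR step called 22 of 98 genes changed by log2 1 and 79 of 102 changed by log2 2 in HCR against LCR (13138 genes), and 56 of 95 and 91 of 105 in HRT against LRT (13478 genes), with 10 and 7 unchanged genes also called. The alternatives were DESeq2 1.42.0, other scalings, no filter, no fold threshold, fits of 2 groups, a replicate block, the heading number as covariate and leaving out each library. All 6 genes are named by rule, and the 2 most similar genes by r. Members, lists and tests were chosen with earlier results of these data known. Replicates are separate rats, numbered by the labels. Same-numbered HRTT and HRT libraries deviated together (correlations 0.475, 0.264 and 0.382, all above 0.1, from the data and not the design), and no other comparison had all its pairs above 0.1. Gene lists, cell markers and levels per kilobase were not analysed here, since 0 identifiers of the tables matched the reference table.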

Additional observations from a re-analysis of the deposited data

Results flagged for a closer look

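The ratio of Cytb to Atp6 separated the high from the low rats in 1 direction in the lines bred for capacity and in the other direction in those bred for response. It was 0.689 to 0.743 in HCR above 0.520 to 0.677 in LCR, but 0.649 to 0.686 in HRT below 0.701 to 0.791 in LRT, and 0.621 to 0.699 in HRTT below 0.729 to 0.743 in LRTT. On the log2 scale the difference of high minus low line was 0.23 in the capacity lines, -0.17 in the untrained and -0.14 in the trained responder lines. The difference between these differences was 0.397 against the untrained and 0.375 against the trained responders, each with an exact permutation p of 0.005, the smallest possible, which follows from groups being fully apart in opposite directions. Adjusted over all 4950 ratios between the 100 genes with most counts, these p-values were 0.952 and 0.837 and do not pass. LCR replicate 2, the lowest rat at 0.520, moves the capacity value most: without it the capacity lines differed by 0.111, and the differences were 0.276 and 0.254. Without HRTT replicate 3 the trained responder lines differed by -0.0922, and the difference was 0.324. The ratio of Cytb to Atp8 was also apart in opposite directions with the trained responders: 0.29 in the capacity lines and -0.23 in HRTT against LRTT, a difference of 0.526 (exact permutation p = 0.005, again the smallest for groups so separated, adjusted p = 0.837). Without LCR replicate 2 the capacity lines differed by 0.161 and the difference was 0.395. Of all 4950 ratios, 20, or 0.404%, were apart in opposite directions with the untrained and 12, or 0.242%, with the trained responders, beside 1 and 2 of the 15 ratios of the mitochondrial genes. These 15 ratios share their genes and depend on each other. The capacity and responder libraries are in separate tables and differ in generation, breeding goal and handling, and these cannot be told apart. With 3 rats in each group, no formal test for an outlying rat was run.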

How the results depend on the processing

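In each of the 8 comparisons 0 of the 6 genes were called under every alternative run, including the replicate block (0 called), DESeq2 and each library left out. The alternative scalings turned no member's direction and moved the median of all genes by under 0.1 on the log2 scale. Over all genes DESeq2 called 78 in HCR against LCR, 20 in HRT against LRT, 30 in HRTT against LRTT, 8 in LRTT against LRT, 2 in HRTT against HRT, 71 between the responder lines, 4 for training and 2 for the difference of training effects, where edgeR called 4, 1, 1, 0, 0, 9, 0 and 0. With edgeR, HCR against LCR gave 17 calls with no filter and 0 with the replicate block or the heading number as covariate, the responder lines 15 with no filter and 5 with the replicate block, HRTT against LRTT 2 with no filter and HRT against LRT 2 with library totals only, and fits of only 2 groups gave 5, 6 and 1 in HRT against LRT, HRTT against LRTT and LRTT against LRT. With 1 library left out the calls ranged from 0 to 10 in HCR against LCR, 1 to 4 in HRT against LRT, 1 to 5 in HRTT against LRTT, 0 to 3 in LRTT against LRT, 3 to 18 between the responder lines and 0 to 1 in the other 3 comparisons. The heading number as a term, added after seeing the data, gave 14 calls between the responder lines and 0 for training, with 0 of the 6 genes in both; for training it turned Co2 to 0.179, Cytb to 0.214, Atp6 to 0.174 and Atp8 to 0.13. The replicate block turned Atp6 in HRTT against LRTT to 0.0036 and Co1 in trained against untrained to -0.00722, values close to 0.

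Leaving out 1 library turned the sign of 25 of the 48 log2 fold changes and moved another 22 by over 1.5 times, and none passed. The summed share in HRTT against LRTT ranged from -2.44 to 0.81 percentage points, above 0 without LRTT replicate 1, and in trained against untrained from -0.94 to 0.688. It ranged from 0.373 to 2.86 in HCR against LCR, from 1.3 to 4.06 in HRT against LRT, from 0.132 to 1.76 between the responder lines and from -5.15 to -1.9 for the difference of training effects. Log2 fold changes whose sign turned ranged as follows. In HCR against LCR, Co3 from -0.134 to 0.0525 and Atp6 from -0.136 to 0.0752. In HRT against LRT, Cytb from -0.000442 to 0.407. In HRTT against LRTT, Co1 from -0.421 to 0.0853, Co2 from -0.0655 to 0.227, Co3 from -0.362 to 0.0106, Cytb from -0.384 to 0.0537, Atp6 from -0.251 to 0.188 and Atp8 from -0.129 to 0.304. In LRTT against LRT, Co2 from -0.0433 to 0.339, Cytb from -0.0554 to 0.372, Atp6 from -0.0331 to 0.396 and Atp8 from -0.168 to 0.254. In HRTT against HRT, Co3 from -0.319 to 0.000562 and Atp8 from -0.26 to 0.0138. Between the responder lines, Co1 from -0.0291 to 0.24, Co3 from -0.0864 to 0.114 and Cytb from -0.0975 to 0.125. In trained against untrained, Co1 from -0.105 to 0.16, Co2 from -0.17 to 0.0199, Co3 from -0.073 to 0.107, Cytb from -0.126 to 0.0859, Atp6 from -0.12 to 0.0927 and Atp8 from -0.136 to 0.0738. In the difference of training effects, Atp8 from -0.361 to 0.0657. Of those whose sign held, Co1 ranged from 0.0981 to 0.413 in HCR against LCR, 0.14 to 0.653 in HRT against LRT, 0.0386 to 0.572 in LRTT against LRT, -0.433 to -0.131 in HRTT against HRT and -0.825 to -0.286 in the difference of training effects, and Co2 from 0.202 to 0.507 in HCR against LCR, 0.34 to 0.731 in HRT against LRT and, between the responder lines, 0.213 to 0.412. The cause was not tested.

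The difference of Co2 to Co3 between high and low lines, added after seeing the data, ranged from 0.31 to 0.364 (log2) with each library left out. Its direction was fixed by the choice of this ratio. Counting error was at most 0.355% of a value. The order per kilobase was not run, since no gene lengths were used.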
